A study of Homo sapiens with 6 samples.

Results

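GAGE genes encode a family of cancer testis antigens. They were read here on 7 probe sets of an Affymetrix human expression array, a probe set being the group of short array probes that yields 1 signal. The 7 probe sets, of 22215 tested, were chosen from differences already seen between the SH3GL2 and the empty vector arrays, so every difference of theirs between the groups is given below as a description and carries no test. The array's platform annotation assigned 5 of them to 13 GAGE gene symbols in all. It listed neither of the other 2, so that no gene could be attached to them here and their place in the family was not checked. The probe sets are called below by how many genes they are assigned to, and the unlisted pair by the ending of their names, _s_at and _x_at. The cells were SUM-159, an established triple negative breast cancer line, stably transfected either with empty vector (pcDNA 3.1) or with an SH3GL2 insert in that vector, each with 3 arrays. Neither the labels nor the methods say whether the 3 arrays of a group came from separate cultures or whether a transfected line was 1 clone or a pool, so the errors cover only the spread between these arrays, which may be technical. SH3GL2 itself, the transfected gene, gave no signal above the reference described below in either group. Its log2 signal was 3.24, 3.18 and 3.25 on the empty vector arrays and 3.15, 3.33 and 3.29 on the arrays labelled SH3GL2, a difference of 0.03 (standard error 0.09, adjusted p = 0.909 from limma). The higher SH3GL2 level that the labels imply was thus not seen in this array signal. The paper reports stable overexpression of SH3GL2 in SUM-159 cells, and shows it apart from the microarray. Whether the probes lie within the insert was not tested. Arrays are called SH3GL2 arrays below by their label alone, and every direction given rests on that label.

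GAGE proteins are small, acidic and mostly nuclear. In healthy adults they are found mainly in germ cells, and many tumors make them again. Their genes lie as a row of nearly identical copies on the short arm of chromosome X, and in most somatic cells they are kept silent by DNA methylation of their promoters. Because the copies are so alike, an array probe seldom tells them apart. In Affymetrix names the ending _s_at marks probes common to several transcripts, and _x_at marks a set in which some probes also match other sequences.

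The stretch before the start site shows how alike the copies are, and is given here because the genes can hardly be separated by signal. RefSeq promoters of the GRCh38.p14 assembly were found for 12 GAGE genes. In 8 of them the 250 bases before the start were the same letter for letter on the plus strand. GAGE1 is entered with a pair of start sites, and the bases before one of these were that same sequence and those before the other were shifted. GAGE12B and GAGE12G held it too, shifted by a different start site. GAGE10, to which no probe set here is assigned, differed, with 224 of 248 aligned bases identical to GAGE12C (90.3%). Below, capitals mark each CG pair, the dinucleotide that carries DNA methylation. The first sequence is at chrX:49531927-49532176 and the second at chrX:49303396-49303645.
GAGE12C: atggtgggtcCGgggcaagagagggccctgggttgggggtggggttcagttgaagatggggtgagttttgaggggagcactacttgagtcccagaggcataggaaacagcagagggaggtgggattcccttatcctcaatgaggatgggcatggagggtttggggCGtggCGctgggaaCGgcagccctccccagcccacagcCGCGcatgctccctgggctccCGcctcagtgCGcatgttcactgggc
GAGE10: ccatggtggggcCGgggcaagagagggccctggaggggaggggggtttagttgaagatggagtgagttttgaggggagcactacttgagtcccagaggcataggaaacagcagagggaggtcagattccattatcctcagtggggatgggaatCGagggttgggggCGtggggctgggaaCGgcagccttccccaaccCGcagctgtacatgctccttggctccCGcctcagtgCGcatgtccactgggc

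The GAGE12C stretch held 8 CG pairs and that of GAGE10 held 7, against a median of 11 over the 35093 promoters of the table. All but the first of the GAGE12C pairs lay between positions -85 and -16, counted from the first transcribed base as 0. Letters read by known factors were then searched on both strands, in windows that also held the 50 bases after the start. The E-box CACGTG, read by MYC, MAX and MGA, began at position 23 of GAGE12C and occurred in all 12 GAGE windows, as in 7.26% of all promoters. The E2F core TCCCGC began at -29 and also occurred in all 12, as in 26.9% of all promoters. The core of the NRF1 motif, GCGCATGC, began at -46 in GAGE12C and occurred in 11 windows, every one but that of GAGE10, against 3.05% of all promoters. These 3 motifs do not overlap each other in GAGE12C. The GC box GGGCGG (44.9% of all promoters), the ETS motif CCGGAAGT (4.14%), the IRF core GAAANNGAA (8.11%) and the STAT motif TTCNNNGAA (7.66%) occurred in no GAGE window. Such matches describe these letters only.

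The signal was higher on the arrays labelled SH3GL2 than on those labelled empty vector on 6 of the 7 probe sets, with no overlap between the groups. In 10.5% of all probe sets the SH3GL2 arrays likewise lay wholly above the empty vector arrays. The same 6 were at least 2-fold higher, as were 0.117% of all probe sets. These counts follow from how the probe sets were chosen. Over all 7 the median log2 difference, SH3GL2 minus empty vector, was 1.90, beside a median of 0.01 over all probe sets tested. In such bulk RNA a change in the number of cells that make a transcript and a change in the RNA per cell cannot be told apart.

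**Figure D1:**
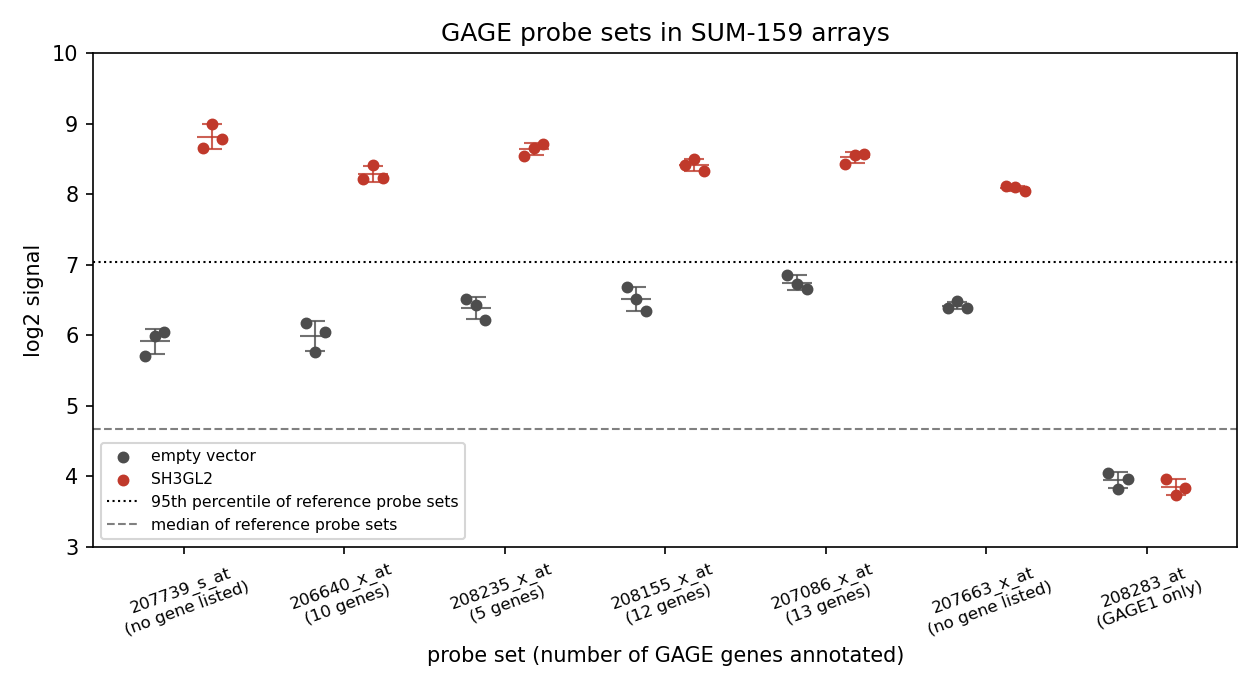
Log2 signal of the 7 probe sets, 2 of which have no listed gene. There is 1 point per array, with the mean and SD of 3 arrays per group. Lines mark the median (4.67) and the 95th percentile (7.03) of 80 reference probe sets for genes of other organs. On 6 probe sets the empty vector points lie below the dotted line and the SH3GL2 points above it, and on the probe set of GAGE1 alone both groups lie below the dashed line.

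Of the 4 probe sets shared by several annotated GAGE genes, 1 is assigned to 10 genes, among them GAGE2A, GAGE12C, GAGE12D and GAGE12H. Its log2 signal was 6.17, 5.76 and 6.04 on the empty vector arrays and 8.21, 8.41 and 8.23 on the SH3GL2 arrays. The lowest SH3GL2 array thus lay 2.04 above the highest empty vector array. The means were 5.99 ± 0.21 and 8.28 ± 0.11 (SD, n = 3), a log2 difference of 2.29 or 4.90-fold.

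The probe set of 5 genes has the shortest list of the 4, namely GAGE4, GAGE7, GAGE12B, GAGE12F and GAGE12G. Its log2 signal was 6.51, 6.43 and 6.21 with empty vector and 8.54, 8.66 and 8.71 with SH3GL2. The difference of the means was 2.25, or 4.77-fold, against SDs of 0.16 and 0.09 (n = 3). The groups were 2.03 apart at their nearest arrays. Which of the probe sets of 5 and 10 genes differed more was not settled, since the order turned with 16 added before the logarithm (2.06 and 2.04), with a replicate block (2.23 and 2.19), without empty vector replicate 2 (2.28 and 2.18) and without SH3GL2 replicate 2 (2.24 and 2.23).

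On the probe set of 12 genes, which include GAGE1, GAGE13 and GAGE12J, the log2 signal was 6.68, 6.52 and 6.34 with empty vector and 8.41, 8.50 and 8.33 with SH3GL2. That is a difference of 1.90 between means of 6.51 ± 0.17 and 8.41 ± 0.09 (SD, n = 3). The broadest probe set is assigned to all 13 genes. It gave 6.86, 6.73 and 6.65 with empty vector and 8.43, 8.56 and 8.57 with SH3GL2, a difference of 1.77 or 3.42-fold (SDs of 0.11 and 0.08, n = 3). The 2 probe sets with the longest gene lists therefore had the smaller differences of the 4, and the 2 with the shorter lists had the larger ones. With 4 probe sets that share genes this is an order and no more.

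The probe sets with no listed gene lay at both ends of the range. On the unlisted _s_at probe set the log2 signal was 5.71, 5.99 and 6.04 with empty vector and 8.65, 9.0 and 8.78 with SH3GL2. This was the largest increase of all 22215 probe sets, with a log2 difference of 2.90, or 7.45-fold, between means of 5.91 ± 0.18 and 8.81 ± 0.18 (SD, n = 3). The groups were 2.61 apart at their nearest arrays. On the unlisted _x_at probe set the arrays gave 6.39, 6.48 and 6.39 with empty vector and 8.11, 8.10 and 8.04 with SH3GL2. Its difference of 1.66 (3.17-fold) was the smallest of the 6, and its arrays were also the tightest, with SDs of 0.05 and 0.04 (n = 3). Of the 2108 probe sets for which the annotation gives no symbol, 3 were at least 2-fold higher (0.142%), and these include both. Both were chosen from differences already seen between the groups, so this count says nothing about their place in the family.

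Across the 6 probe sets the empty vector means ran from 5.91 to 6.75 and the SH3GL2 means from 8.08 to 8.81. For a scale of signal without transcript, 80 probe sets of 52 genes of other organs (liver, pancreas, muscle, retina and the like) had a median mean of 4.67, and the 95th percentile of their means, called the reference limit below, was 7.03. All 6 empty vector means lay below the limit and above the median. All 6 SH3GL2 means lay above the limit. How much of the empty vector signal came from GAGE transcripts was not tested, and a fold over a level so close to the reference depends on it. With 16 added on the linear scale before the logarithm, the 6 differences ran from 1.50 to 2.61, beside 1.66 to 2.90 as deposited. Within a group no array was high or low throughout. Empty vector replicate 1 was the highest of its group on 4 of the 6 and the lowest, in a tie on the unlisted _x_at probe set, on the other 2. SH3GL2 replicate 2 was the highest of its group on 3.

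GAGE1 is the only GAGE gene symbol with a probe set of its own. The log2 signal there was 4.05, 3.82 and 3.96 with empty vector and 3.96, 3.74 and 3.84 with SH3GL2, so the groups overlapped. The difference was -0.10 between means of 3.94 ± 0.12 and 3.85 ± 0.11 (SD, n = 3). Both means were below the reference median, so a level of GAGE1 could not be read from it in either group. The annotation also assigns GAGE1 to the probe sets of 12 and 13 genes, where the signal was higher with SH3GL2 but is shared with other GAGE genes.

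**Figure D2:**
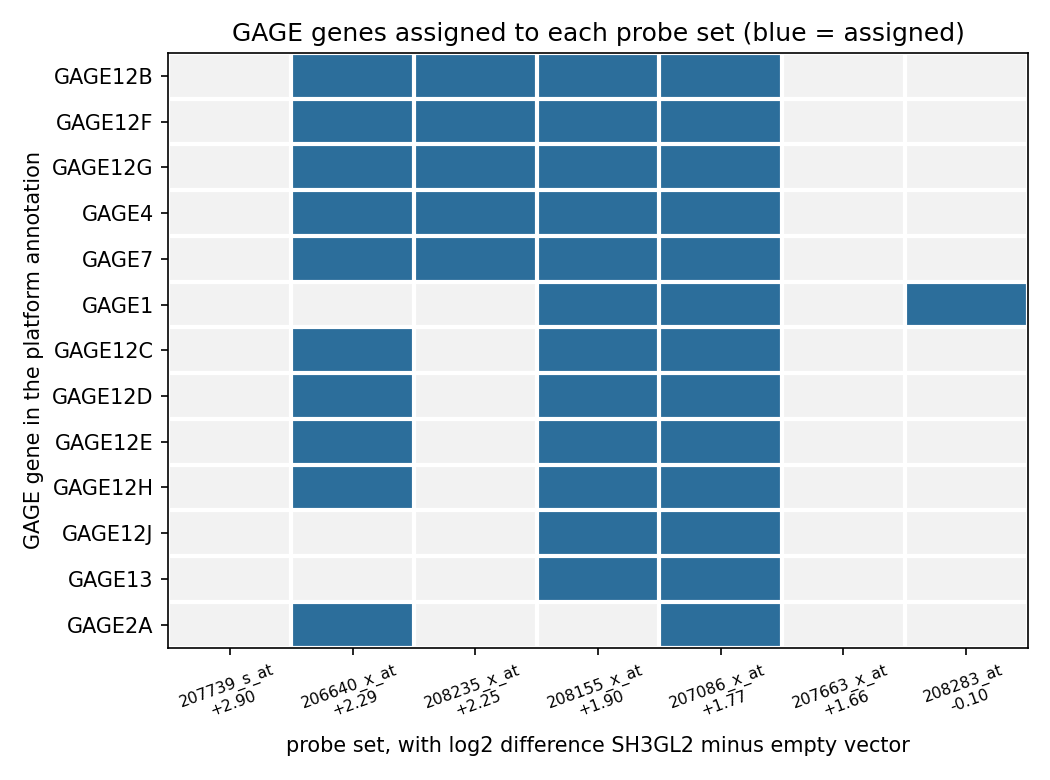
GAGE genes (rows) that the platform annotation assigns to each probe set (columns, ordered by their log2 difference, SH3GL2 minus empty vector, printed under each). GAGE1 alone has a probe set of its own, at -0.10, and 5 genes share all 4 probe sets at 1.77 to 2.29.

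Read gene by gene, GAGE4, GAGE7, GAGE12B, GAGE12F and GAGE12G were assigned to all 4 shared probe sets, at differences of 1.77, 1.90, 2.25 and 2.29. GAGE12C, GAGE12D, GAGE12E and GAGE12H were assigned to the 3 at 1.77, 1.90 and 2.29. GAGE2A had those at 1.77 and 2.29, and GAGE12J and GAGE13 those at 1.77 and 1.90. Only GAGE1 has a probe set of its own, and no level could be read from it, so no gene was told from its copies. Which copy or copies gave the signal was not tested. The gene names are partly old. The gene numbers of 11 of the 13 were in RefSeq and those of GAGE4 and GAGE7 were not. There these symbols are older names of GAGE1 and GAGE12F, so the counts of genes per probe set are counts of symbols in the annotation and may exceed the distinct genes.

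The nearest relatives of GAGE were then compared between the groups. Of 3 PAGE and XAGE probe sets, none passed limma at an adjusted p of 0.05, and without adjustment the number under 0.05 was 0 as well. An analysis of variance of single probe sets called 0. The share that it called over all probe sets is not given here. Its counts of 0, here and below, thus cannot be read as particular to a list. Over all probe sets limma called 4.17%. XAGE1, a cancer testis antigen on the same arm of chromosome X, was the one with a clear signal. Its probe set, shared by XAGE1A and XAGE1B, had a log2 signal of 11.46, 11.27 and 11.42 with empty vector and 11.27, 11.26 and 11.30 with SH3GL2. The groups overlapped, and the difference was -0.11 (standard error 0.06, adjusted p = 0.424 from limma). PAGE1 and PAGE4, which lie directly beside the GAGE row, had differences of 0.19 (adjusted p = 0.354) and -0.08 (adjusted p = 0.769) in limma at means of 3.94 to 4.72, near or below the reference median, where a change can hardly be seen.

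Genes beside the GAGE row were next examined, taking in RefSeq order the 15 nearest on each side that had a probe set with 1 symbol. None of their 39 probe sets passed limma, where 6 were higher and 1 was lower at a p under 0.05 before adjustment, and the analysis of variance called 0. Over all probe sets 8.24% were higher and 7.62% lower before adjustment, and limma called 4.17% after it. Their differences ran from -0.23 to 0.28 with a median of 0.08. FOXP3, the last measured gene before the row and best known from regulatory T cells, had 0.08 and 0.26 on its 2 probe sets. CCDC22, a member of an endosomal sorting complex, had 0.13 and 0.25. On the other side CLCN5, an endosomal chloride transporter, had the largest difference of the 39, 0.28 (standard error 0.10, adjusted p = 0.168), at means of 5.62 and 5.91. Of the 39 probe sets, 19 exceeded the reference limit in a group mean, and the rest say little about a change.

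**Figure D3:**
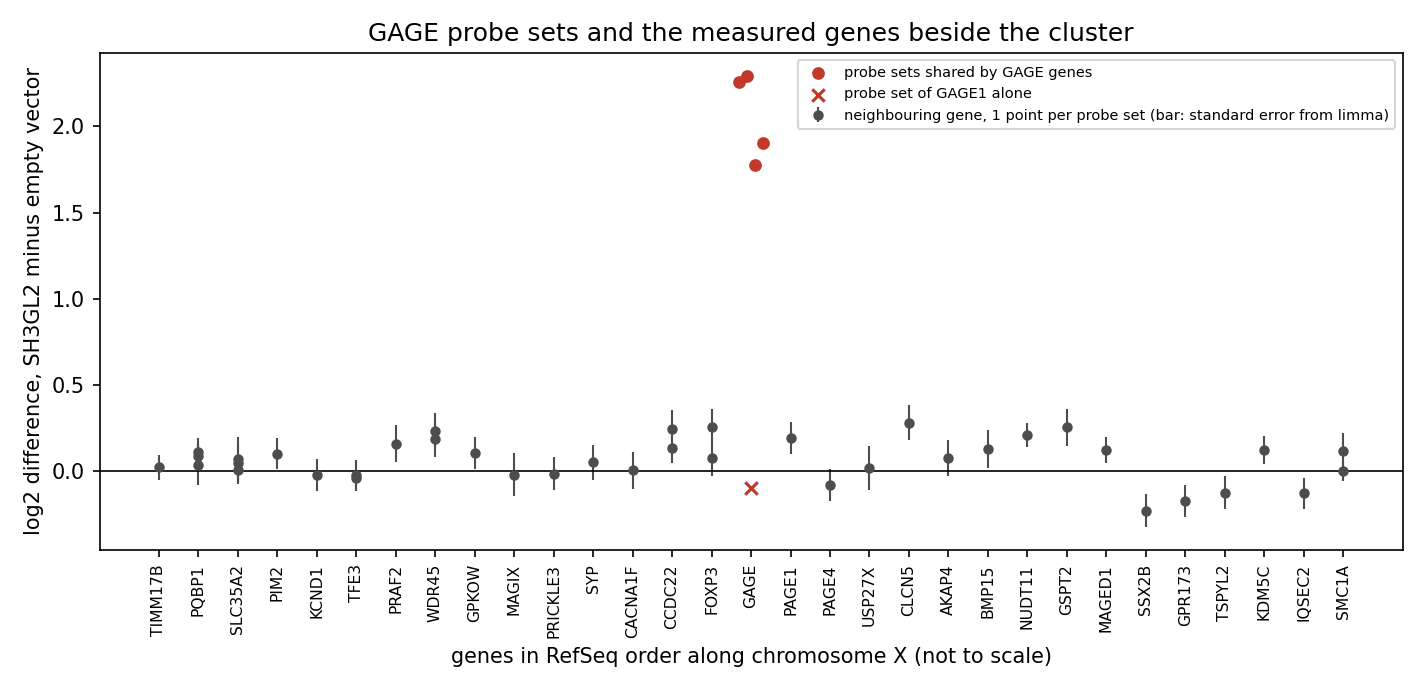
Log2 difference (SH3GL2 minus empty vector) of the GAGE probe sets with an assigned gene and of 39 probe sets of the 30 nearest measured genes on chromosome X, in RefSeq order and not to scale, with bars for the standard error. The 4 shared GAGE probe sets lie at 1.77 to 2.29, and the neighbours lie between -0.23 and 0.28.

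The listed germ cell genes, none of them from the GAGE, PAGE or XAGE families, gave little signal in these cells. None of 37 probe sets for 28 genes, among them the RNA helicase DDX4, the RNA-binding protein DAZL, the synaptonemal protein SYCP1 and the protamines PRM1 and PRM2, reached the reference limit in either group. None passed limma, where 2 were higher and 1 was lower before adjustment, and the analysis of variance called 0. Over all probe sets limma called 4.17%, and before adjustment 8.24% were higher and 7.62% lower. At such dim signals these low counts say little about germ cell genes. The median difference was 0.05, over a range from -0.23 to 0.26. For DDX4 the log2 signal was 3.82, 4.02 and 3.80 with empty vector and 3.93, 4.36 and 4.10 with SH3GL2, below the reference median throughout. Markers of the cell line were mixed between mesenchymal and epithelial. The mesenchymal VIM had means of 14.68 and 14.58, and both CDH1 probe sets and the EPCAM probe set, which are epithelial, were at or under 4.79 on every array. CDH2, the other listed cadherin, lay above the reference limit on both probe sets, at means of 10.53 and 10.32 and of 8.13 and 7.97. The epithelial keratins KRT18 (means of 11.73 and 11.98) and KRT8 (9.75 and 9.65) also lay above the reference limit. The keratin KRT5 (6.73 and 6.78) lay below it. Of the receptors that define a triple negative cancer, PGR (means of 3.63 and 3.59) and all 9 ESR1 probe sets were under the reference limit, as was 1 of the 2 ERBB2 probe sets, with the other at 8.50 and 8.45.

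Proteins known to bind GAGE proteins are the interferon-responsive transcription factor IRF1, the nucleolar chaperone NPM1 and the nuclear envelope protein GMCL1. None of their 5 probe sets passed limma or the analysis of variance, and before adjustment 0 were under 0.05. All 5 had means above the reference limit. Over all probe sets limma called 4.17%, so a count of 0 among 5 says little about these genes. IRF1 had the largest difference, 0.15 (standard error 0.10, adjusted p = 0.527). NPM1 was among the brightest, at means up to 14.28, with differences of -0.01 to 0.02 on 3 probe sets.

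Genes that methylate DNA, modify chromatin or bind promoters at germline genes mostly did not pass limma. Of 66 probe sets for 40 genes, 2 were higher, 1 was lower and 63 did not pass. The analysis of variance called 0, with adjusted p = 0.173 for EZH2, 0.182 for EED and 0.0815 for KDM5B. Over all probe sets 1.99% were higher and 2.18% lower. EZH2, the methyltransferase of Polycomb repressive complex 2, fell from 9.43, 9.35 and 9.53 to 8.98, 8.76 and 9.01 in log2 signal. The groups did not overlap, and the difference was -0.52 (standard error 0.08, adjusted p = 0.00239 from limma, and 0.0872 with values floored at the reference median). EED, another subunit of that complex, rose from 9.95, 10.03 and 10.03 to 10.29, 10.46 and 10.28, a difference of 0.34 (standard error 0.07, adjusted p = 0.0104 from limma), on 1 of its 2 probe sets. The other EED probe set lay below the reference median with a difference of 0.32 (adjusted p = 0.165). SUZ12, the core subunit that holds the complex together, had 0.00 (adjusted p = 0.990).

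KDM5B, a histone H3 lysine demethylase, rose from 7.81, 7.87 and 7.91 to 8.18, 8.22 and 8.16 on 1 of 4 probe sets. The difference there was 0.32 (standard error 0.07, adjusted p = 0.0282 from limma). Its other probe sets did not pass limma, with differences of 0.23 (adjusted p = 0.115), 0.09 (adjusted p = 0.652) and 0.04 (adjusted p = 0.895). The 1 call of KDM5B was lost when any array other than empty vector replicate 3 was left out (adjusted p = 0.0671 to 0.09996 in limma). For EED the adjusted p of limma was 0.0530 when empty vector replicate 1 was left out, so that its call, too, was lost. The maintenance methyltransferase DNMT1 had a difference of 0.05 (adjusted p = 0.777) at means of 11.01 and 11.06. DNMT3A and DNMT3B, which set new methylation, had 0.02 and -0.02 on a probe set each, at means under the reference limit, and TET1 and TET3, which remove it, had -0.03 and 0.15 there. E2F6 and MGA, which bind germline promoters through the E2F and E-box letters described above, had 0.07 (adjusted p = 0.722) and 0.22 (adjusted p = 0.300).

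**Figure D4:**
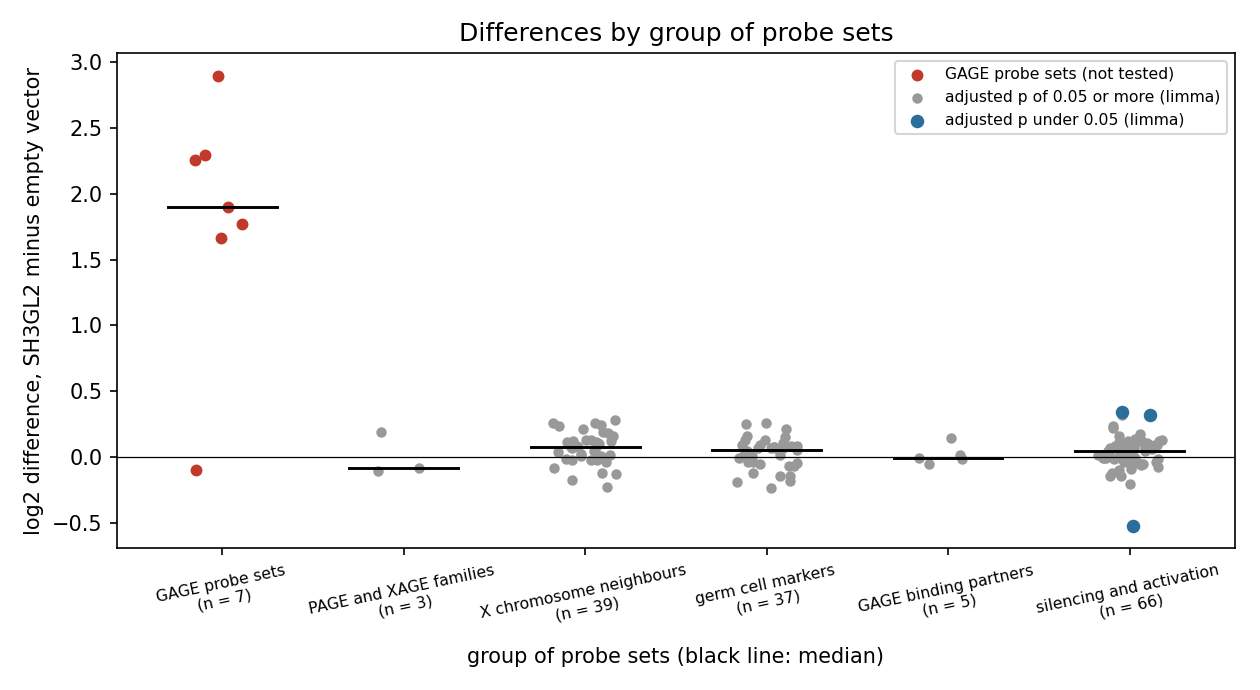
Log2 differences (SH3GL2 minus empty vector) of the GAGE probe sets and of 5 groups of genes, with 1 point per probe set, a black line at each median, and blue points for an adjusted p under 0.05 in limma. The median of the 7 probe sets labelled GAGE, 2 of them with no listed gene, is 1.90. The medians of the other groups lie between -0.08 and 0.08, and the 3 blue points are EED, KDM5B and EZH2.

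The genes whose values over the 6 arrays most resembled the shared GAGE probe sets were ranked by the root mean square distance between their differences from their own empty vector mean and the mean profile of the 4 probe sets, and named only from probe sets with 1 symbol. CCL5, a chemokine, was nearest, at a distance of 0.07 on the log2 scale. Its log2 signal was 6.77, 6.67 and 6.60 with empty vector and 8.67, 8.65 and 8.80 with SH3GL2. The GAGE probe sets themselves lay at 0.12 to 0.20 from their mean profile. Among genes so named, the mitochondrial dehydrogenase ALDH5A1 followed at 0.33, the interferon-induced IFIT1 at 0.38, and the calcium-binding protein S100A2 and the chemokine CXCL10 at 0.50 each. CXCL10 spread widely over the SH3GL2 arrays, at 6.94, 6.28 and 7.73. Nearer than CXCL10 lay 3 further probe sets outside the family. Of these, 1 is another of CCL5, at 0.36 and so farther than ALDH5A1, 1 has no symbol and 1 has several. The unlisted _x_at probe set, at 0.29, was nearer than ALDH5A1, and the unlisted _s_at probe set, whose increase was larger, lay at 0.62. With 2 groups of 3 arrays such a distance is set almost wholly by the size of the difference between the groups.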

How the data were processed

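RNA of 3 empty vector and 3 SH3GL2 samples of SUM-159 cells was measured on Affymetrix arrays. The authors used GCOS software, and MAS5 is named, with no version, in the submitters' processing notes. The deposited signals were taken to be log2 values from their range and were used unchanged. Scaling between arrays is not given in the sources used here, and array medians were 6.97 to 7.02. From 22277 probe sets 62 controls were removed. The annotation gave 1 symbol to 19064, several to 1043 and none to 2108. Genes other than GAGE were tested with limma 3.58.1 (R 4.3.3; moderated two-sided test with a mean-variance trend), the p-values being adjusted by Benjamini-Hochberg over all 22215 probe sets, at a threshold of 0.05. The number of arrays, 3 per group, limits the precision. Figures were drawn with matplotlib 3.10.9.

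The members and lists were chosen with earlier results of these data known. Named were every GAGE probe set, up to 4 probe sets per list that passed by smallest adjusted p, the 5 genes of nearest profile, and SH3GL2. Other list genes that are named, such as XAGE1A, CLCN5, DDX4 or DNMT1, were picked after their values were seen. The reference held 52 measured genes of 60 listed for other organs. Motifs and CG pairs were counted in the RefSeq promoters. The alternatives appear in the closing section. The fits were also run on simulated data, whose outcome is not given here and so lends the calls no support.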

Additional observations from a re-analysis of the deposited data

How the results depend on the processing

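Over all 12 alternatives tried the 6 higher probe sets had log2 differences of 1.50 to 2.98 and so kept their direction. Both ends of that range came from the 2 probe sets with no listed gene. The median over all 7 was 1.73 with 16 added before the logarithm, which lowers folds of dim signals by construction, and 1.81 to 1.98 with 1 array left out. It was 1.98 with a replicate block, taken as the median of the 3 differences within a number. After removing group means, arrays that share a number correlated at -0.01, 0.13 and 0.15, and arrays of unlike number at -0.16 to 0.02. The numbers were not taken as pairs, although these values do not settle whether replicates 2 and 3 were paired. The block moved no count of calls in the lists. The count of 2 higher silencing and activation genes was 1 with values floored at the reference median (adjusted p = 0.0946 for EED in limma), 1 without an intensity trend (adjusted p = 0.0528 for EED) and 0 in the analysis of variance. With 1 array left out it was 0 to 2, namely 0 without empty vector replicate 1, 1 without empty vector replicate 2 or any SH3GL2 array, and 2 without empty vector replicate 3. The 1 lower gene, EZH2, was 0 with the floor (adjusted p = 0.0872 in limma) and in the analysis of variance (adjusted p = 0.173), and its call held without each array. With the floor the log2 differences themselves stayed at -0.52 for EZH2 and 0.34 for EED. The cause of the lost calls was not tested. The counts of 0 for the other 4 lists were 0 under every alternative. Signal over background limits what can be seen, since 49.6% of probe sets exceeded the reference limit in their mean.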
